A study of Mus musculus with 34 samples.

Results

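The transcripts that encode the oxidative phosphorylation machinery were followed through mouse kidney development and through 2 kinds of kidney culture. The members were all protein-coding genes of the deposited table whose symbol begins with mt-, taken as the mitochondrial part, and those whose symbol marks a nuclear-encoded complex I, III, IV or V protein (the Nduf a, b, c, s and v series, Uqcr, Cox4 to Cox8 and Atp5) or is Sdha, Sdhb, Sdhc or Sdhd. That gave 106 members among 23331 genes in the table, 13 of them mitochondrial and 93 nuclear. Because the choice rests on symbols, it left out Cyc1, which carries another name, and it brought in 8 complex I assembly factors (the Ndufaf genes) and Cox5b-ps, which the table lists as protein coding and whose role was left unassigned here.

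Bulk RNA-seq libraries from 34 samples fell into 17 groups of 2. Kidney progenitor assembloids (mKPA), made from expandable mouse kidney progenitors of the Hoxb7-venus genotype, were grown in Stage-based media-v2 (v2 here) and taken at D3, D7, D13 and D19, the last in sets labelled r1 and r2. Explants were Hoxb7-venus kidneys from E12.5 that had been cultured in v2 to D19, in Stage-based media-v1 (v1) to D3, D7, D13 or D19, in Stage-based media-v0 (v0) to D17, or with 10% FBS (fetal bovine serum) to D7. Freshly taken wild-type kidneys came from embryos at E12.5 and E15.5, newborns at P0, pups at P9 and young adults at P45. Hoxb7-venus is a reporter that labels the ureteric epithelium, and it is shared by all cultures and absent from all fresh kidneys, so any difference between cultures and kidneys also spans genotype. Sources used here do not give the composition of v0, v1 and v2, the pooling of animals or the sex. Since the labels do not tie replicates to separate animals or cultures, all p-values measure only the spread between these samples, which may be technical.

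Oxidative phosphorylation takes place in the inner mitochondrial membrane, where complexes I and II pass electrons from NADH and succinate to coenzyme Q, complex III hands them on to cytochrome c, and complex IV gives them to oxygen. Complexes I, III and IV pump protons, and complex V, the ATP synthase, uses the returning protons to make ATP. The mitochondrial genome encodes core membrane subunits of all but complex II, and the nucleus encodes the rest, so the complexes need transcripts from both genomes. In the adult kidney the proximal tubule and the thick ascending limb hold the most mitochondria, since salt and solute transport there runs on ATP.

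The deposited values are a signal normalized by TMM (trimmed mean of M values), not counts, and are called TMM units here. Column totals ran from 879095 to 1503681 units with a median of 962126. Dividing each total by the smallest value of its column gave an implied depth of 15243962 to 28459391 steps in 33 libraries and 7772347 steps in the second D19 v2 explant library, which is therefore the least precise. Libraries of a group correlated at 0.983 or more on the log2 scale. The 2 P0 kidney libraries differed in the measure under study, with 5.00 and 3.60% of the column total in mitochondrial members and 1.28 and 1.6% of the remaining total in nuclear members. The main counts set against P0 are given with and without each where that moves them. Kidney identity markers were present where the labels put them: the proximal tubule list of 8 genes summed to between 15770 and 15870 units at P45 and to 17.9 and 18.4 at E12.5.

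A gene was called when limma, fitted to log2(value + 0.962) of 19264 genes in all 34 libraries, gave a Benjamini-Hochberg adjusted p under 0.05. All 106 members passed the filter on low values, which asked for at least 0.962 units in 2 libraries. Log2 changes are on the log2(value + 0.962) scale, which understates those of the lowest genes. For D19 assembloids the mean of sets r1 and r2 was used (4 libraries), and 0 members were called between r2 and r1, against a background of 0.0986% of genes called higher and 0.208% lower.

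The 13 mitochondrial transcripts took a small share of the embryonic library and a large share after birth. In wild-type kidneys they made up 1.93 and 1.94% of the column total at E12.5, 2.42 and 2.7% at E15.5, 5.00 and 3.60% at P0, 14.5 and 19.9% at P9, and 19.7 and 21.5% at P45. The largest step lay between P0 and P9, where the groups were far apart, and the P9 and P45 ranges overlapped. The 93 nuclear members followed another course as a share of the total without mt- genes, with 0.686 and 0.712% at E12.5, 0.886 and 0.890% at E15.5, 1.28 and 1.6% at P0, 1.48 and 1.5% at P9, and 2.14 and 1.93% at P45. Their P9 values lay inside the P0 range. The ratio of the mitochondrial to the nuclear sum was 2.87 and 2.78 at E12.5, 2.80 and 3.12 at E15.5, 4.13 and 2.33 at P0, 11.5 and 16.7 at P9, and 11.5 and 14.3 at P45. Both shares are ratios within a library and do not depend on how libraries were scaled against each other. In bulk tissue, fewer cells of a type and less RNA per cell cannot be told apart.

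In culture both shares were higher at D19 than at D3. Assembloids had 3.0 and 3.27% mitochondrial at D3, 3.89 and 3.60% at D7, 4.42 and 4.78% at D13, and between 4.37 and 5.33% at D19, which overlapped the P0 kidney range. Explants in v1 had 2.48 and 2.57% at D3, 3.58 and 3.25% at D7, 4.93 and 4.21% at D13, and 4.39 and 4.29% at D19. The other explant groups held 5.38 and 4.84% at D19 in v2, 5.96 and 5.33% at D17 in v0, and 3.87 and 3.89% at D7 with FBS. No cultured library reached the lowest P9 value of 14.5%. The nuclear share in assembloids was 0.683 and 0.705% at D3, 0.627 and 0.659% at D7, 0.716 and 0.755% at D13 and 0.902 to 0.986% at D19. In v1 explants it was 0.755 and 0.725% at D3, 0.837 and 0.855% at D7, 0.834 and 0.851% at D13, and 0.912 and 0.895% at D19. The D19 values did not overlap those of D3 in either culture. In v2 explants at D19 the nuclear share was 0.865 and 0.863%, and every cultured library lay below both P0 kidneys.

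**Figure D1:**
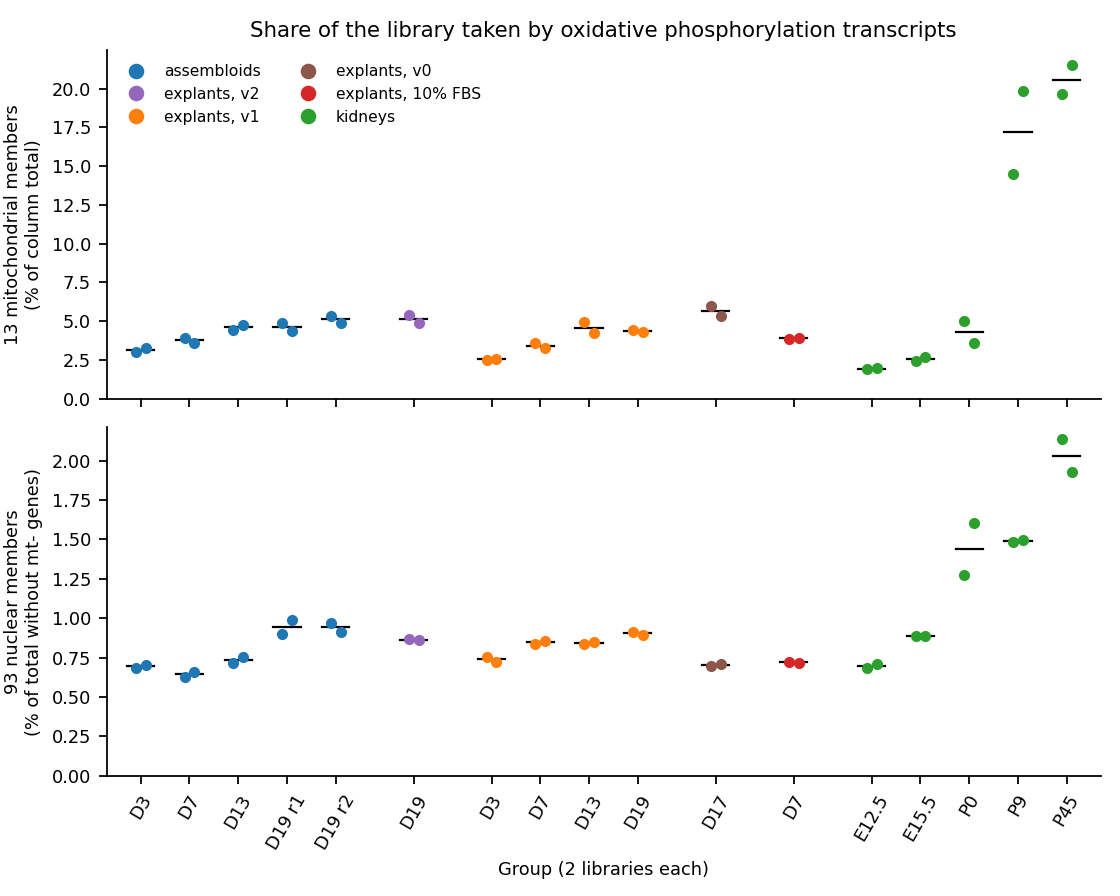
Mitochondrial members as a percent of the column total (top) and nuclear members as a percent of the total without mt- genes (bottom), for each library, by group; points are libraries and bars are group means (n = 2). The mitochondrial share was 14.5 to 21.5% in P9 and P45 kidneys and at most 5.96% in every other library, while the nuclear share was above 1.2% in P0, P9 and P45 kidneys and below 1% in all cultures.

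Between E12.5 and birth, transcripts of all the complexes rose together. In P0 over E12.5 kidneys 81 of 93 nuclear and 10 of 13 mitochondrial members were called higher and 0 were called lower, against 26.4% of all genes called higher and 25.8% lower. The median log2 change was 0.98 for nuclear and 1.12 for mitochondrial members, against 0.00 for all genes tested. Most of the nuclear change fell between E15.5 and P0, with 75 nuclear members called higher (14.6% of all genes), against 36 between E12.5 and E15.5 (15.4% of all genes). That earlier count depends on single libraries, since leaving out any one of its 4 libraries left 17 to 21 members called, against 39 with all of them.

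The subunits of complex I, which oxidizes NADH, were called higher at P0 for 33 of 37 genes, with a median of 0.93. All 4 genes of complex II (succinate dehydrogenase), all 8 of complex III and all 11 common nuclear subunits of complex IV were called higher, with medians of 0.82, 1.09 and 1.19. Of 17 complex V genes, 15 were called higher, with a median of 1.08. The 8 complex I assembly factors, which build the enzyme without staying in it, moved less, with 4 called higher and a median of 0.46.

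The largest change belonged to Atp5g1, 1 of 3 genes for the same mature c-ring subunit of ATP synthase. It had 41.9 and 50.5 TMM units in P0 kidneys and 6.60 and 5.91 units in E12.5 kidneys, a log2 change of 2.7 (SE 0.35, limma adjusted p = 1.4e-06). The groups did not overlap. The second c-ring gene, Atp5g3, was the most abundant of the 3, with 251 and 353 units at P0 against 151 and 157 at E12.5, and Atp5g2 stayed between 0.409 and 2.74 units in all 34 libraries. Atp5e, the epsilon subunit of the central stalk, averaged 108 ± 53.8 units at P0 and 30.3 ± 1.26 at E12.5 (SD, n = 2 each), with a log2 change of 1.71. Uqcr10, a small complex III subunit, followed with 1.55, and Atp5l, the membrane subunit g of ATP synthase, with 1.46. The spread within P0 was wide for these small subunits: Atp5e had 70.4 and 146 units, Uqcr10 83.3 and 143 and Atp5l 77.1 and 112, each higher in the second library.

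Promoters are shown for Atp5g1, Sdhb, Sdhd and Atp5j. Atp5g1 had a log2 change of 2.7 at P0 over E12.5, Sdhb 1.31 at P45 over P9 and Sdhd only 0.51 at P9 over P0. Atp5j serves as an example of a window with matches. NRF1, GABP of the ETS family, YY1 and the estrogen-related receptors are factors known to bind promoters of respiratory genes. RefSeq windows of 300 bases on GRCm38.p6, running from 250 bases before to 50 bases after the annotated start, matched 76 of the 93 nuclear members in 81 windows. The NRF1 core GCGCATGC, searched on both strands, was in 14.8% of the member windows and 2.71% of all 32851 windows. The YY1 letters AAGATGGCG were in 8 member windows (9.88 against 1.4%) and the ETS letters CCGGAAG in 19 (23.5 against 8.86%). The estrogen-related receptor letters TCAAGGTCA were in only 2 member windows (2.47 against 0.423%), among them the Sdhd window printed here. No motif overlapped another in the windows printed. Capitals mark the matches, on either strand.
Sdhb, chr4:140961021-140961320, plus strand, NRF1 and ETS: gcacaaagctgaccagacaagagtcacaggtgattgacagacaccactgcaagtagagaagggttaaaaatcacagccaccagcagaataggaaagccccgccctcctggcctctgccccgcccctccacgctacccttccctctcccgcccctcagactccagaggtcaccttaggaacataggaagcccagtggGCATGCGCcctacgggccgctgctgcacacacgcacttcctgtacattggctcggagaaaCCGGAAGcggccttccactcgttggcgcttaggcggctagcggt
Atp5j, chr16:84834927-84835226, minus strand, YY1 and ETS: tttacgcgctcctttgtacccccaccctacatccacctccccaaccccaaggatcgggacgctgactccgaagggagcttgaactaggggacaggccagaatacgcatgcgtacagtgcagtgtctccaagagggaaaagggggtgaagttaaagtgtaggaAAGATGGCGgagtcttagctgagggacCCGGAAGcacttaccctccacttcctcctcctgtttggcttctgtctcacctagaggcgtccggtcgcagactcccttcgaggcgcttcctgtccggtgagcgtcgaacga
Sdhd, chr9:50603800-50604099, minus strand, ETS and estrogen-related receptor: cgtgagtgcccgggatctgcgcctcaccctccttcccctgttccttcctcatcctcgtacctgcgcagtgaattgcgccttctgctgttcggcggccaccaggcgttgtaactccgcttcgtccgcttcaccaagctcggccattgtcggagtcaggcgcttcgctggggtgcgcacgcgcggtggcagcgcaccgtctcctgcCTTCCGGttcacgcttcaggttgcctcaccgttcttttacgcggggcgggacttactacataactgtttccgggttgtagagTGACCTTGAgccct
Atp5g1, chr11:96075582-96075881, minus strand, no match: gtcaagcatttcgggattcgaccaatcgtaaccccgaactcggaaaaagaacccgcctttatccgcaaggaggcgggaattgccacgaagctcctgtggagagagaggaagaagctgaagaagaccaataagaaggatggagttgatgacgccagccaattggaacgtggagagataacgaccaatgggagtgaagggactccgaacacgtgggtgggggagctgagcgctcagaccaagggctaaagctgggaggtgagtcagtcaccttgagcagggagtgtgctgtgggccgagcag
Sdhb and Sdhd are subunits of complex II, Atp5j is coupling factor 6 of the ATP synthase stalk, whose other RefSeq window held none of the letters, and Atp5g1 had the largest rise before birth and none of the letters in this window. A match is a description of these letters and not a measured binding site. Atp5j had 150 and 170 units at P0 and 115 and 105 at E12.5, a smaller change than that of Atp5g1.

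After birth the genomes parted. In P9 over P0 kidneys 12 of 13 mitochondrial members were called higher and 0 lower, while 8 nuclear members were called higher and 7 lower, against 19.9% of all genes called higher and 22.4% lower. The median log2 change was 2.28 for mitochondrial and 0.05 for nuclear members. In P45 over P9 kidneys the medians of the parts were alike on the TMM scale, at 0.77 for nuclear and 0.76 for mitochondrial members. There 72 nuclear and 9 mitochondrial members were called higher and 0 lower, against 22.8% of all genes called higher and 22.2% lower. The mitochondrial share, which does not depend on that scaling, overlapped, with 14.5 and 19.9% at P9 and 19.7 and 21.5% at P45. Over the whole span, in P45 over P0 kidneys, all 13 mitochondrial and 74 nuclear members were called higher and 2 nuclear members lower (29.6 and 30.5% of all genes), with medians of 2.72 and 0.78.

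**Figure D2:**
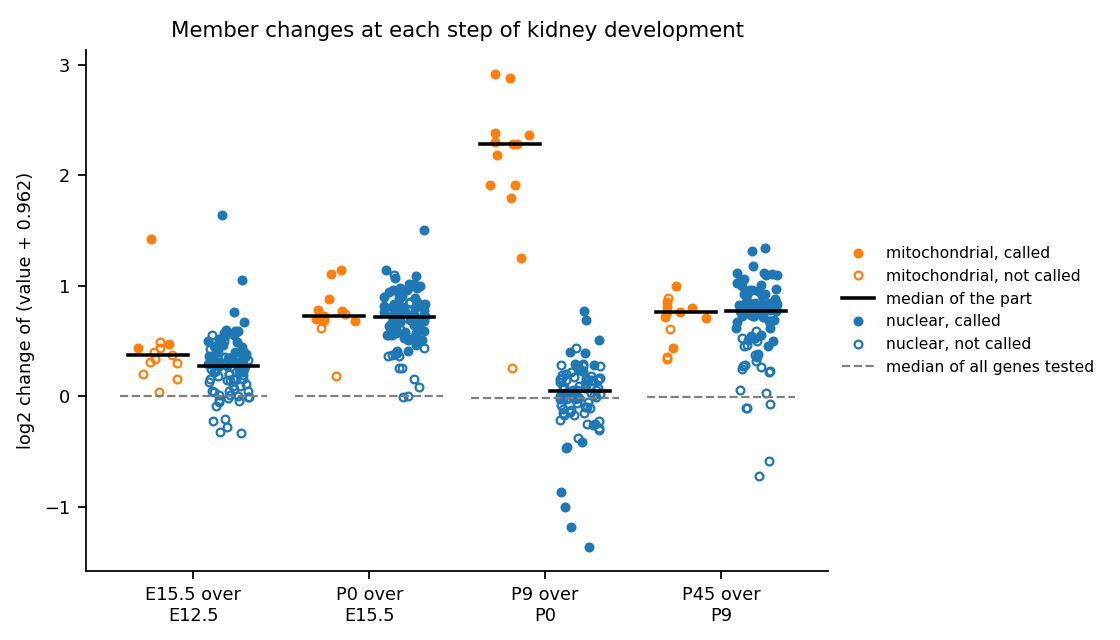
Log2 change of each member at 4 successive steps of kidney development, mitochondrial members left and nuclear members right in each pair; filled points were called (adjusted p under 0.05, limma), open points were not, black bars are medians of each part and dashed lines medians of all genes tested. The mitochondrial median was 2.28 at P9 over P0, where the nuclear median was 0.05, and the medians of both parts were alike at P45 over P9 (0.76 and 0.77).

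The mitochondrial rise between P0 and P9 was broad. mt-Co1, the catalytic subunit of complex IV, had 47373 and 74205 units at P9 and 15070 and 9931 at P0, a log2 change of 2.28. mt-Nd5 and mt-Nd4l, subunits of the membrane arm of complex I, showed 2.88 and 2.92. mt-Cytb, the complex III cytochrome b, showed 2.18, and mt-Co2, mt-Co3 and mt-Atp6 ranged from 1.79 to 1.91. mt-Nd3, another membrane subunit of complex I, did not pass the test, with 530 and 860 units at P9 and 509 and 629 at P0. It had moved earlier, with 259 and 267 units at E15.5 and 94.2 and 101 at E12.5. Leaving out any 1 of the 4 libraries left 11 or 12 mitochondrial members called. Quantile normalization, which holds the most abundant ranks of all libraries at equal values, left 7 called higher with a median of 0.38, and turned mt-Co2 to -0.0423.

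The nuclear count of that step did not hold in the same way. Without the first P0 library 6 nuclear members were called higher and 20 lower at P9, with a median of -0.16, and without the second 24 were called higher and 1 lower, with a median of 0.22. A fit to these 2 groups alone called 1 higher and 3 lower. Setting all column totals equal moved the median of all genes to -0.19 and gave 2 nuclear members higher and 18 lower, with the mitochondrial count still at 12. Among the nuclear members called at P9 over P0 were Sdhd, with 243 and 228 units at P9 and 153 and 178 at P0 (log2 change 0.51, SE 0.107, limma adjusted p = 0.000346), and the flavoprotein Sdha, with 363 and 441 units at P9 and 312 and 294 at P0 (0.40). Both belong to complex II, which has no mitochondrially encoded subunit. Ndufv2, an iron-sulfur subunit of the NADH-oxidizing module, showed 0.39 and the accessory subunit Ndufa1 0.77, though Ndufa1 lost its call without the first P0 or the second P9 library. Atp5e, Atp5mpl and Atp5j2, small subunits of ATP synthase, were called lower, with log2 changes of -1.19, -0.87 and -0.46. Atp5e and Atp5mpl lost the call without the second P0 library, where both were highest.

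Between P9 and P45 all 4 genes of complex II and all 11 common nuclear subunits of complex IV were called higher, with medians of 1.02 and 0.83, as were 32 of 37 complex I, 7 of 8 complex III and 14 of 17 complex V genes. Sdhb, the iron-sulfur subunit of complex II, had 345 and 368 units at P45 and 140 and 146 at P9, a log2 change of 1.31 (SE 0.0983, limma adjusted p = 1.7e-11). Cox6a1, the common form of a regulatory complex IV subunit, had 760 and 704 units at P45 and 332 and 343 at P9 (1.11). Atp5mpl showed 1.34. The P45 column totals were scaled by TMM alongside a large change in composition: with equal totals the median of all genes at P45 over P9 was -0.33 and 48 nuclear members were called higher and 3 lower, and at P45 over P0 it was -0.49, with 31 higher and 11 lower. The nuclear median at P45 over P9 was then 0.34. Over P45 and P0 the mitochondrial members stayed at 12 or 13 called higher under both forms of equal totals.

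Marker genes of the transporting tubule segments moved over the same steps. The 4 thick ascending limb markers summed to between 3424 and 3827 units at P9 and to 512 and 760 at P0, with 4 of 4 called higher, while of the 8 proximal tubule markers 3 were called higher and 1 lower, at 3207 and 3226 against 2355 and 2592 units. At P45 the proximal tubule sum was 15770 to 15870, with 8 of 8 called higher over P9, and the thick ascending limb sum 8143 to 8792, with 1 of 4 called higher. The 4 red blood cell markers summed to 7146 to 9532 units at P45 and 2409 to 3161 at P9, with 4 of 4 called higher. No value in the deposited table was 0, so a value above 0 does not show that a marker was expressed. The part of these markers in the member changes was not tested.

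Other mitochondrial gene lists were counted at the same steps, where the shares of all genes called higher and lower were 26.4 and 25.8% at P0 over E12.5, 19.9 and 22.4% at P9 over P0, and 22.8 and 22.2% at P45 over P9. Of 20 genes of the TCA cycle and pyruvate entry, 19 were called higher at P0 over E12.5, 10 at P9 over P0 and 20 at P45 over P9, with 0 lower at each step. The mitochondrial pyruvate carrier genes Mpc2 and Mpc1 were prominent: Mpc2 averaged 124 ± 26 units at P0 and 20.9 ± 3.8 at E12.5, and Mpc1 66.4 ± 2.2 at P9 and 31.8 ± 4.6 at P0 (SD, n = 2 each). Of 78 mitochondrial ribosome genes, 38 were called higher and 1 lower at P0 over E12.5, 2 higher and 25 lower at P9 over P0, and 46 higher and 0 lower at P45 over P9. The 15 genes that replicate and transcribe mitochondrial DNA gave 1 higher and 3 lower at P9 over P0, and among them Twnk, the replicative helicase, averaged 22.2 ± 2.7 units at P9 and 39.4 ± 4.6 at P0 (log2 change -0.80). Of 15 genes for mitochondrial RNA stability and processing, 1 was called higher and 2 lower at that step, and 11 higher and 0 lower at P45 over P9, where Lrpprc, which stabilizes mitochondrial mRNAs, averaged 156 ± 17 units at P45 and 87.1 ± 9.8 at P9.

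Transcriptional regulators known to act on respiratory genes changed in both directions. At P0 over E12.5, 8 of 18 were called higher and 7 lower, against 26.4% of all genes higher and 25.8% lower. Among those that rose, the estrogen-related receptor Esrrg averaged 70.0 ± 23 units at P0 and 5.22 ± 0.61 at E12.5. The coactivator Ppargc1a averaged 58.2 ± 17 and 5.86 ± 1.1 (SD, n = 2 each). Those called lower are not named. Myc fell to 16.6 ± 2.7 units at P9, against 62.5 ± 0.72 at P0, and the fatty acid receptor Ppara was 11.9 ± 0.23 at P9 and 4.25 ± 0.36 at P0. At P45 over P9 Perm1, a regulator known from muscle, averaged 25.9 ± 5.4 and 1.72 ± 1.4 units. For these later steps only single regulators are given, without counts, and they do not describe the list as a whole. Genes against reactive oxygen species were called higher for 11 of 12 at P0 over E12.5, 5 at P9 over P0 and 11 at P45 over P9, with Gpx1 at 1099 ± 39 units in P45 and 268 ± 22 in P9 kidneys.

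Per kilobase of gene, mt-Co1 had the highest level of the 13 in all 17 group means, at 62600 units per kb in P45 kidneys and 3544 in E12.5 kidneys. mt-Atp8, which encodes a small ATP synthase subunit, had the lowest in the same groups, at 547 and 74.6 units per kb. Its gene is 204 bases long and shares 43 bases with mt-Atp6 on the same strand, so reads there cannot be assigned to one gene by position. These shared bases, at 7927 to 7969 of the mitochondrial chromosome, read:
mt-Atp8 and mt-Atp6: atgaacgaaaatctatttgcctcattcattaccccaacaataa
mt-Nd4l and mt-Nd4 share 7 bases, and mt-Nd5 shares 14 with mt-Nd6 on the opposite strand. Sources used here do not state the strand setting of the counting, so values of mt-Nd6 are uncertain. Those of mt-Atp8 and mt-Nd4l are uncertain at any strand setting, since they share bases with a gene on the same strand. The mt-Atp8 value of 140 units in the first D17 v0 explant library, against 27.7 in the second, was the highest in any cultured library.

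The share of single transcripts in the mitochondrial pool varied between libraries. mt-Co1 made up 30.0 to 32.8% of the 13 in the 10 kidney libraries. It held 31.8 and 32.3% in assembloids at D3, 33.9 and 34.7% at D7, 35.4 and 36.5% at D13 and 38.6 to 38.9% at D19. In v1 explants it was 34.9 and 33.8% at D3 and 39.4 to 41.8% from D7 on, and in v2 explants at D19 it was 41.6 and 41.7%. FBS explants had 33.2 and 33.8%. The D3 assembloid values lay inside the kidney range, and all other cultured libraries lay above it. mt-Nd3 held 0.630 to 1.07% of the pool in the 10 assembloid libraries and 0.236 to 0.545% in the 8 v1 explant libraries, and these ranges did not overlap. The other explants held 0.838 and 0.770% with FBS, inside the assembloid range, 0.570 and 0.623% in v0, and 0.341 and 0.412% in v2.

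**Figure D3:**
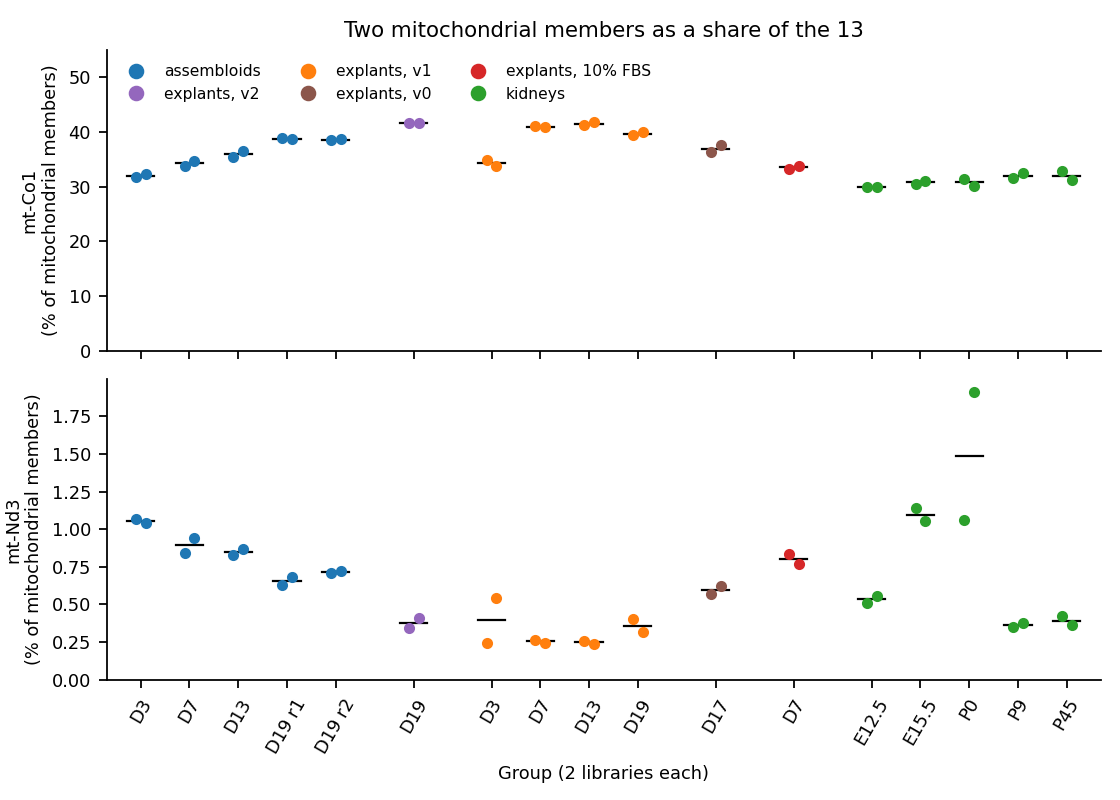
mt-Co1 (top) and mt-Nd3 (bottom) as a percent of the summed signal of the 13 mitochondrial members in each library; points are libraries and bars are group means (n = 2). mt-Co1 was 30.0 to 32.8% in kidneys and reached 38.6 to 38.9% in D19 assembloids and 41.6 to 41.7% in D19 v2 explants, and mt-Nd3 was higher in all assembloid than in all v1 explant libraries.

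The assembloids (v2) and explants (v1) could be compared on 3 matched days, though their media differ as well. mt-Nd3 was called higher in assembloids each time, with log2 changes of 1.90 at D3, 2.02 at D7 and 1.92 at D13. At D13 it had 356 and 413 units in assembloids and 115 and 87.4 in explants. In all, 5 mitochondrial members were called higher at D3 (9.2% of all genes), 4 at D7 (13.2%) and 2 at D13 (14.7%), and 0 lower. Nuclear members leaned the other way at D7, where 41 were called lower in assembloids (13.3% of all genes) and 1 higher, with a median of -0.36. With any 1 of the 4 D7 libraries left out, 20 to 31 were called lower. By complex, 6 of 8 complex III and 18 of 37 complex I subunits were called lower, against 41 of all 93 nuclear members. At D3 and D13 only 7 and 9 were called lower (11.9 and 14.8% of all genes), and 2 to 4 and 2 to 6 with 1 library left out. The mitochondrial counts at D3 and D7 also rest on single libraries, with 1 to 2 and 1 to 3 called higher when 1 was left out.

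Both parts rose over time in culture. In assembloids at D19 over D3, 60 nuclear members were called higher and 1 lower, and 8 mitochondrial members were called higher, against 26.2% of all genes higher and 26.1% lower. The medians were 0.37 for nuclear and 0.42 for mitochondrial members. In v1 explants at D19 over D3, 38 nuclear members were called higher and 1 lower and 11 mitochondrial members higher. The shares of all genes were 23.2 and 20.9%, and the medians were 0.28 and 0.77. The count of nuclear members called higher in explants was smaller with any 1 library left out. In assembloids 49 nuclear and 0 mitochondrial members were called higher at D19 over D13 (16% of all genes). The nuclear count was 21 without the first D13 library, 30 without the second r1 library, and 37 to 52 with any other left out.

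By complex, assembloids at D19 over D3 had 28 of 37 complex I, 4 of 4 complex II, 6 of 8 complex III, 9 of 11 complex IV and 7 of 17 complex V genes called higher. In v1 explants the same counts were 13, 3, 5, 9 and 5. Ndufa6, an accessory subunit of complex I, had between 73.2 and 85.8 units in the 4 D19 assembloid libraries and 36.0 and 35.2 in the D3 libraries, a log2 change of 1.10 (SE 0.12, limma adjusted p = 8.71e-09). Cox6a1 had 209 to 245 units at D19 and 114 and 120 at D3 (0.91). In v1 explants Cox7a2l, which is known for holding complexes III and IV together, had 177 and 182 units at D19 and 93.4 and 97.6 at D3 (0.91, SE 0.102, limma adjusted p = 2.55e-08), and Ndufa8 and Cox8a showed 0.78 and 0.73. mt-Co1 had the largest mitochondrial change in both cultures, 0.88 in assembloids and 1.08 in explants, though quantile normalization turned the explant value to -0.44.

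The tubule markers rose in both cultures as well. In assembloids 7 of 8 proximal tubule markers were called higher at D19 over D3, with sums of 410 to 431 and 15.2 to 18.3 units, and in v1 explants 7 of 8, with 519 to 543 and 42.5 to 77.5 units. All 5 cell cycle markers were called lower in each culture. Outside the members, 13 of 20 TCA cycle genes were called higher in each culture, with 0 lower in assembloids and 1 in explants. The part of these lists in the member changes was not tested.

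Of the paralogs that replace common subunits in muscle, testis or hypoxic cells, Ndufa4l2 and Cox6b2 set the cultures apart. For Cox4i2, Cox6a2 and Cox8b the D19 to D3 changes of assembloids and v1 explants were not called different. Ndufa4l2, a complex IV-associated paralog of Ndufa4 known as a hypoxia-induced gene and as a pericyte gene in many tissues, had 0.250 and 0.269 units in assembloids at D3, 0.486 and 0.351 at D7, 1.87 and 2.07 at D13, and 7.55, 15.6, 15.0 and 12.7 at D19. The D19 libraries lay far above all earlier ones, with a log2 change of 3.44 over D3 (SE 0.376, limma adjusted p = 2.79e-08). In v1 explants it had 2.39 and 1.62 units at D3, 1.09 and 1.90 at D7, 1.67 and 1.27 at D13, and 1.92 and 4.40 at D19. The change in assembloids exceeded that in explants by 3.02 (SE 0.574, limma adjusted p = 0.000387). Against v2 explants at D19, with 1.02 and 1.07 units, the assembloid values were higher by 2.73 (SE 0.376, limma adjusted p = 7.49e-06).

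In kidneys Ndufa4l2 was highest at birth, with 9.83 and 12.9 units at E12.5, 11.7 and 11.5 at E15.5, 22.0 and 30.4 at P0, 10.6 and 8.43 at P9, and 8.47 and 3.28 at P45. It was called lower in P45 than in P0 kidneys, with a log2 change of -2.09, and in D19 assembloids than in P0 kidneys, with -1.02, a call lost on leaving out either P0 library or either of 2 assembloid libraries. Of 5 pericyte markers 4 were called higher and 1 lower in assembloids at D19 over D3, with sums of 207 to 249 and 195 to 215 units. Of 8 hypoxia genes 7 were called higher, with sums of 454 to 616 and 251 to 254 units. At P0 the pericyte sum was 429 to 477 and the hypoxia sum 570 to 639 units. In D19 v2 explants the pericyte markers Pdgfrb, Rgs5, Notch3, Kcnj8 and Abcc9 averaged 63.8, 21.7, 51.1, 16.9 and 23.0 units. The same genes averaged 104, 26.4, 63.9, 17.3 and 29.6 units in D19 assembloid set r1. In set r2 they averaged 102, 18.1, 67.45, 10.45 and 30.0 units. The part of pericytes or of hypoxia in the Ndufa4l2 values was not tested.

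Cox6b2, the testis-type form of a complex IV subunit, changed in opposite directions in the cultures. It had 10.6 to 13.8 units in assembloids at D19 and 5.15 and 5.93 at D3, and in v1 explants 9.80 and 10.9 units at D19 and 14.2 and 19.7 at D3. The fall in explants (log2 change -0.65) did not keep its call in every fit with a library left out. The difference of the changes was 1.58 (SE 0.252, limma adjusted p = 3.25e-05). Cox7a1, the muscle-type form of a complex IV subunit, had 0.0919 and 0.167 units in kidneys at E12.5, 0.902 and 0.863 at E15.5, 2.92 and 6.12 at P0, 4.28 and 2.85 at P9 and 12.8 and 6.49 at P45. The P0 and P9 values overlapped, and the log2 change at P45 over P9 was 1.18. It stayed at or below 1.55 units in all cultures. The other muscle-type genes, Cox6a2 and Cox8b, reached 1.63 and 2.27 units at most in any library. Skeletal muscle markers summed to 14.7 and 85.1 units in E12.5 kidneys and to at most 14.0 units in every other library, and brown fat markers to at most 2.1 units. Cox4i2, the hypoxia-linked form of Cox4, lay between 0.649 and 8.09 units, against 199 to 975 for the common Cox4i1.

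**Figure D4:**
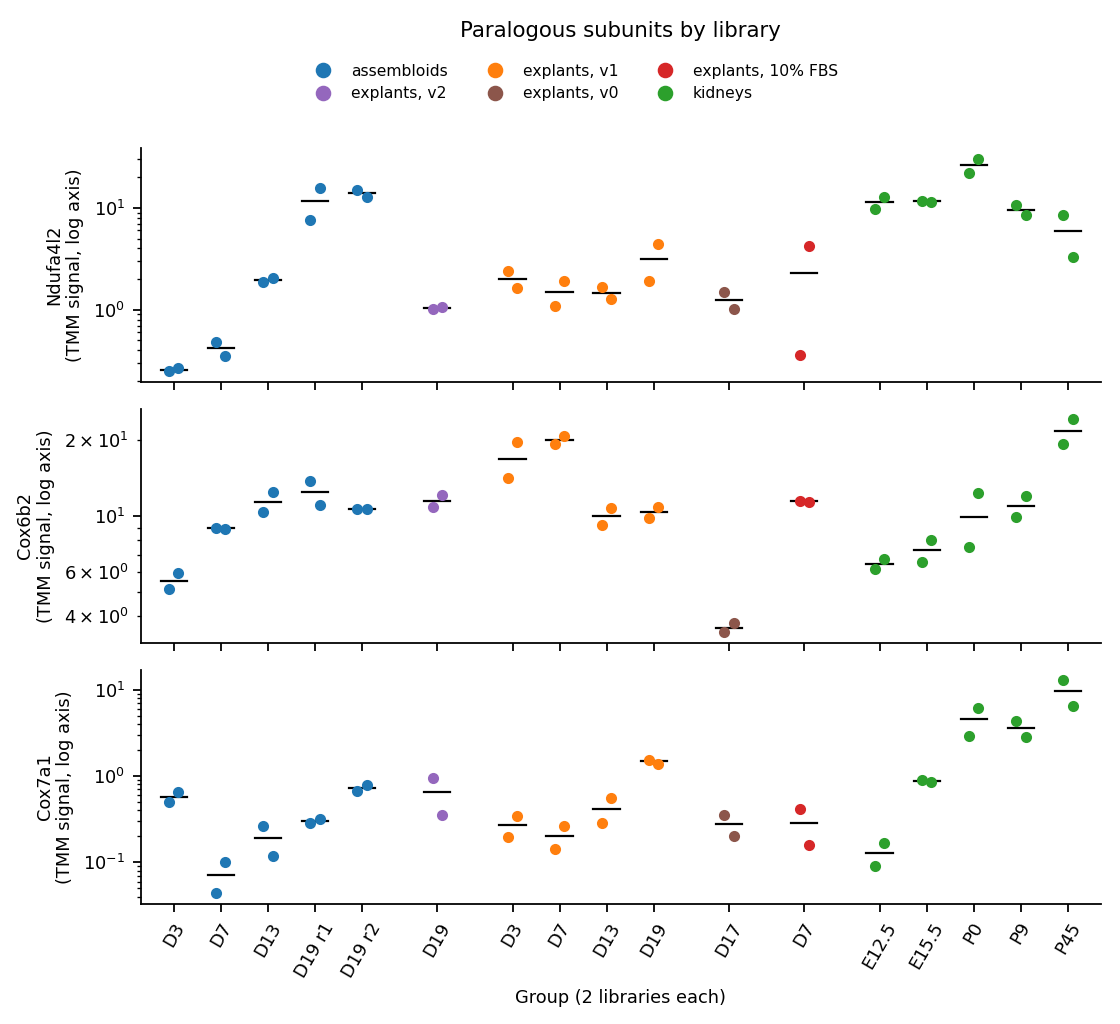
Signal of 3 paralogous complex IV genes in each library on log axes (TMM units); points are libraries and bars are group means (n = 2). Ndufa4l2 was 7.55 to 15.6 in D19 assembloids and 0.250 to 0.269 in D3 assembloids, Cox6b2 moved in opposite directions from D3 to D19 in assembloids and v1 explants, and Cox7a1 stayed at or below 1.55 in all cultures. The Cox6b2 fall in explants did not keep its call in every fit with a library left out.

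The difference of the D19 to D3 changes, assembloids minus v1 explants, was called for 5 members in all, against 9.97% of all genes called positive and 11.1% negative. Uqcrq, a complex III subunit, differed by 0.63 and Sdha by -0.31, besides Ndufa4l2, Cox6b2 and Cox7a1 (-1.05). The first pair and Cox7a1 each lost the call on leaving out single libraries, 5 for Uqcrq, 8 for Sdha and 6 for Cox7a1, while Ndufa4l2 and Cox6b2 kept it in every case. 0 mitochondrial members were called, and all 13 differences were negative.

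At D7, v1 explants were set against explants of the same day in FBS. Nuclear members rose more often than they fell in v1, with 27 called higher and 7 lower, against 17% of all genes higher and 21.9% lower, while 6 mitochondrial members were called lower and 0 higher. The medians were 0.18 and -0.45. mt-Nd3 had 85.5 and 72.5 units in v1 and 316 and 307 in FBS (log2 change -1.97), mt-Nd1 showed -0.75 and mt-Nd4 -0.74, while mt-Co1 showed -0.04. Atp5e had 59.4 and 64.3 units in v1 and 21.2 and 19.4 in FBS, a log2 change of 1.56 (SE 0.285, limma adjusted p = 0.000186). Ndufs6 and Ndufa6, accessory subunits of complex I, were higher by 1.11 and 0.84. Each of the 4 libraries bears on the count, which was 19 to 27 with any one left out and 40 with all. With equal column totals 42 nuclear members were called higher and 0 lower. Immune markers summed to 83.8 to 93.5 units in v1 and 1521 to 1530 in FBS explants, with 4 of 4 called lower, and their part was not tested.

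Ndufs5, another accessory subunit of complex I, is uncertain. It was higher in v1 than FBS explants at D7, at 32.4 and 35.1 against 18.8 and 3.11 units, and in D19 assembloids than in D19 v2 explants, at 27.9 to 36.3 against 5.80 and 5.84. The table also lists its processed pseudogene Ndufs5-ps, at 0.404 and 0.595 units in v1 and 3.83 and 6.98 in FBS explants, and at 0.814 to 0.840 in D19 assembloids against 5.1 and 6.4 in D19 v2 explants. In these comparisons the pseudogene was higher where the gene was lower, but in P45 kidneys the pseudogene had 6.44 and 14.2 units with the gene at 47.6 and 36.7. Reads of such copies can be split by the counting. In all, 8 pseudogene copies of members were listed.

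No member was called between v2 and v1 explants at D19, but 2 libraries per group do not show that none differed. The mitochondrial share was 5.38 and 4.84% in v2 and 4.39 and 4.29% in v1. The nuclear share was 0.865 and 0.863% in v2 and 0.912 and 0.895% in v1, and neither share overlapped. In v2 over v1 explants limma called 0 members, with 4 at an unadjusted p under 0.05, against 2.7% of all genes called higher and 6.67% lower, and the other settings called at most 1. The count was 3 without the first D19 v2 explant library, which left only the shallower one. All 13 mitochondrial log2 changes lay between 0.00 and 0.36 and the nuclear ones between -0.97 and 0.45. D17 v0 explants could be set only against D19 v1 explants, so day and medium both differ. In v0, 57 nuclear members were called lower (15.7% of all genes) and 0 higher, with a median of -0.45, and 4 mitochondrial members were called higher (8.81%). With 1 library left out, 39 to 48 nuclear members were lower and 1 to 5 mitochondrial members higher. In D17 v0 explants Sdhb had 52.2 and 61.4 units, and in D19 v1 explants 78.9 and 87.8.

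Few members were called between D19 assembloids and D19 v2 explants, the match in medium and day. Of the members, 10 nuclear and 1 mitochondrial member were called higher and 0 lower, against 15.2% of all genes higher and 10.8% lower. Besides Ndufa4l2 and Ndufs5, Atp5e had 78.1 to 102 units in assembloids and 34 and 35 in explants (log2 change 1.30, SE 0.247, limma adjusted p = 0.000552), and Cox6c, a small complex IV subunit, 180 to 196 and 143 and 146 (0.40). mt-Nd3 was the mitochondrial one, with 289 to 356 and 183 and 184 units, and lost its call without either explant library. Without the second D19 v2 explant library, without the second r1 library or without the first r2 library, 3 to 7 members were called. Immune markers summed to 22.3 to 27.0 units in assembloids and 284 to 377 in explants.

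Against the newborn kidney, cultures had lower nuclear transcripts, while few mitochondrial transcripts were called. In D19 assembloids 74 of 93 nuclear members were called lower than at P0 and 1 higher, against 24.2% of all genes lower and 19.6% higher, with a median of -0.55. The mitochondrial median was 0.02, with 2 members called higher and 1 lower. Called lower were 29 of 37 complex I, 4 of 4 complex II, 7 of 8 complex III, 10 of 11 complex IV and 14 of 17 complex V genes. Atp5j2, the membrane subunit f of ATP synthase, had 75.9 to 89.9 units in assembloids and 141 and 172 at P0, a log2 change of -0.93 (SE 0.0936, limma adjusted p = 3.87e-09). Atp5md showed -0.96. Atp5k also showed -0.96, but its assembloid values of 15.3 to 20.7 units overlapped the P0 values of 16.5 and 68.9. Without the second P0 library 45 nuclear members were called lower, with a median of -0.37, and without the first 79, with -0.75.

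The mitochondrial members that did change against P0 were mt-Nd5 (0.74), mt-Co1 (0.55) and mt-Nd3 (-0.83), and all 3 lost the call without the second P0 library, while quantile normalization turned mt-Co1 to -0.87. Explants at D19 were also set against P0, with 76 nuclear members called lower in v2 (26.7% of all genes) and 69 in v1 (21.4%). Without the second P0 library these counts were 55 and 42, and without the first 86 and 78. In v2 explants mt-Nd5 showed 0.91, mt-Co1 0.74 and mt-Nd3 -1.62, and in v1 explants 0.77, 0.47 and -1.90, and these were the mitochondrial members called. In v1 explants the 2 higher calls were lost without the second P0 library, where 6 mitochondrial members were called lower. These comparisons share the P0 libraries. Set against the adult, D19 assembloids were lower in 84 nuclear and all 13 mitochondrial members (33.3% of all genes), with medians of -1.33 and -2.67. They were called higher in Ndufa4l2, Cox4i2 and Cox7a2l (33.7% of all genes), though the Ndufa4l2 values of D19 assembloids and P45 kidneys overlapped.

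**Figure D5:**
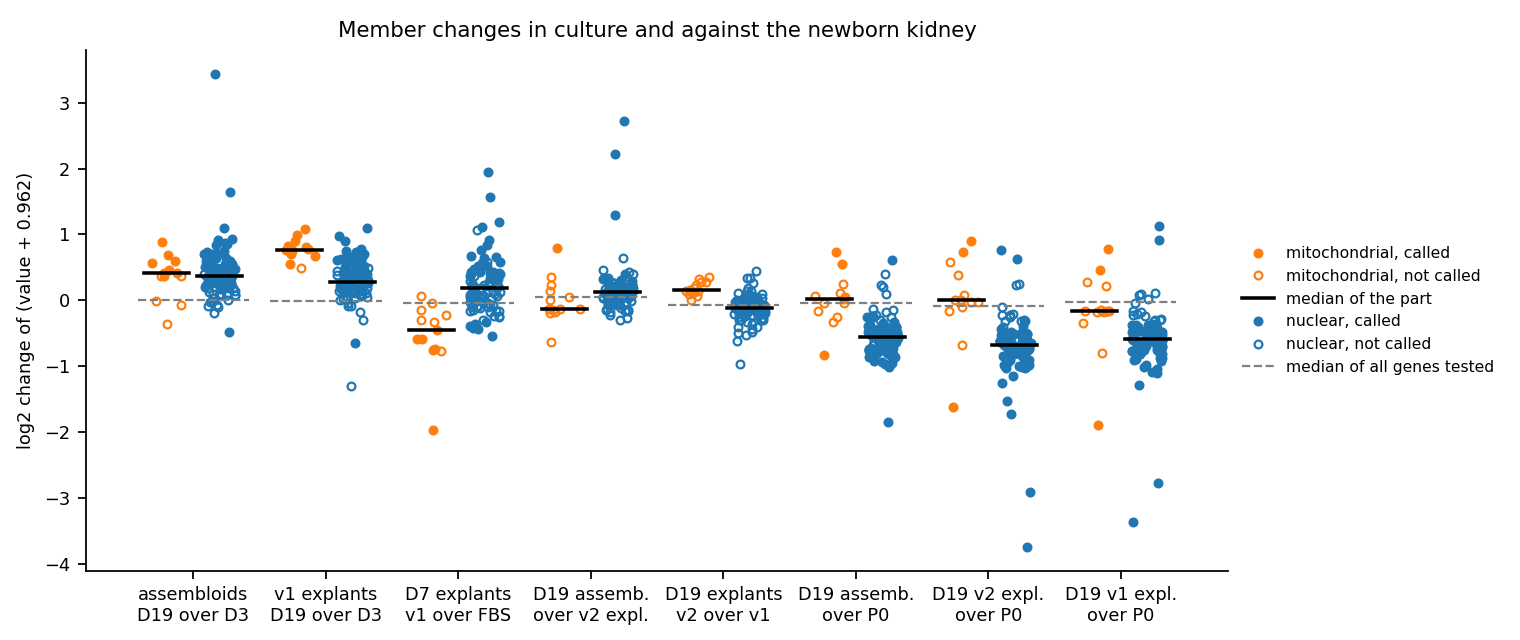
Log2 change of each member in 8 comparisons among cultures and of cultures against P0 kidney, mitochondrial members left and nuclear members right in each pair; filled points were called (adjusted p under 0.05, limma), open points were not, black bars are medians of each part and dashed lines medians of all genes tested. Against P0 the nuclear medians were -0.55 to -0.67 and the mitochondrial medians -0.16 to 0.02.

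Members that changed by 2-fold or more in addition to passing the adjusted p were counted in the main comparisons. In kidneys 54 members passed at P0 over E12.5 (19.5% of all genes), 40 at P45 over P0 (27.5%), 15 at P9 over P0 (11.7%) and 12 at P45 over P9 (14.6%), the last pair of counts being near the share of all genes. The 15 at P9 over P0 were 12 mitochondrial members, all higher, and 3 nuclear members, all lower. In culture 3 passed in assembloids at D19 over D3 (17.4% of all genes), 2 in v1 explants (16.4%), 5 at D7 in v1 over FBS (11.3%), 0 at D19 in v2 over v1 explants (2.84%), 3 in D19 assembloids over v2 explants (5.44%) and 2 in D19 assembloids over P0 kidneys (12.4%). The difference between the culture changes passed for 3 members (9.52% of all genes).

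Endothelial and red blood cell markers were far lower in assembloids than in P0 kidneys, with 4 of 4 called lower for each and sums of 40.2 to 47.1 against 422 to 507 units for endothelium. The proximal tubule sum was 410 to 431 against 2355 to 2592 units, with 7 of 8 called lower. Of 20 TCA cycle genes 17 were called lower and 0 higher, and of the 78 mitochondrial ribosome genes 42 lower and 1 higher. Among the regulators, Esrrb and Epas1 were called lower, with log2 changes of -2.68 and -1.82, and the rest of that list is not given here. The part of cell make-up in the nuclear shortfall was not tested.

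Cultures began close to the E12.5 kidney in nuclear members. At D3 over E12.5 kidney, assembloids had 8 nuclear members called higher and 3 lower (15.1 and 14.2% of all genes) and v1 explants 7 higher and 1 lower (15.1 and 11.9%), with medians of 0.00 and 0.07. With 1 library left out, 2 to 5 nuclear members were called higher in assembloids and 3 to 8 in explants. Mitochondrial members were called higher for 11 of 13 in assembloids and 2 of 13 in explants, and for 8 to 11 and 0 to 1 with 1 library left out. Both comparisons share the E12.5 libraries. Atp5g1 was higher in both, at 29.1 and 24.3 units in assembloids and 17.1 and 17 in explants, against 6.60 and 5.91 in E12.5 kidneys, and Ndufa4l2 was lower in both.

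Over the 17 group means, genes outside the members that were most like the mean nuclear subunit included Cisd1, Ecsit, Suclg1, an enzyme of the TCA cycle, and the complex III gene Cyc1, at r of 0.983 to 0.987. The mean of the mitochondrial members was tracked most closely by Cdadc1 (0.972), Ccdc17, Mfsd4a, Dcaf11 and Clk1, at 0.947 to 0.961. The means of the parts correlated with each other at 0.805. These correlations describe 17 groups from 5 kidney ages and 12 culture groups, and carry no test.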

How the data were processed

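Total RNA from 34 samples was isolated with Zymo column kits and sequenced by NovoGene, per the labels' protocols. STAR 2.7.8a, Partek and the builds mm39 and mm10 are named in the submitters' processing notes. The deposited table holds a TMM-normalized signal for 23331 genes with mm39 coordinates from the authors, and how reads were counted is not stated. Between 88.9 and 94.5% of values up to 20 steps of the smallest value were whole multiples of it (tolerance 0.1 step), so read numbers could not be rebuilt and count models were left aside.

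Values were tested as log2(value + 0.962) with limma 3.58.1 in R 4.3.3, with a mean for each of 17 groups, an intensity trend and robust variances (17 residual degrees of freedom), on genes with at least 0.962 units in 2 libraries. P-values were Benjamini-Hochberg adjusted over 19264 genes. Sums, shares and figures were made in Python 3.11.15 with pandas 2.3.3 and matplotlib 3.10.9. Columns were matched to samples through the descriptions, and P9 columns carry the name D9. Genes named were the mitochondrial members, complex II, paralogous subunits, the 4 largest called changes of nuclear members in each direction per comparison with a mean of at least 10 pseudocounts in the higher group, and up to 3 genes of a context list. Atp5j was chosen for its promoter matches and Uqcrq, Ndufs5-ps and a few other genes after their values were seen. The members, marker lists and gene lists were chosen with earlier results of these data known. The test was checked on simulated data. Alternatives changed the pseudocount, filter, scaling, variance model, samples fitted and replicates. Promoters and their positions are RefSeq on GRCm38.p6, and no coordinates were converted. Depth could be inferred only from the smallest values, so no counting intervals are given. One gene that the likeness rule picks is not reported here.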

Additional observations from a re-analysis of the deposited data

Results flagged for a closer look

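The change between D3 and D19 was tested against itself in the cultures, assembloids minus v1 explants, and differed for 5 members. Ndufa4l2 differed by 3.02, Cox6b2 by 1.58 and Uqcrq by 0.63 on the log2 scale, and Sdha by -0.31 and Cox7a1 by -1.05 (limma interaction, adjusted p under 0.05). The media differ as well, and their part cannot be told apart from that of the tissue source.

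The mitochondrial ribosomal RNAs, which are not members, showed the postnatal rise as well. The ratio of the P45 to the P0 mean was 5.82 for mt-Rnr1, with 1671 and 1368 units at P45 and 266 and 256 at P0. It was 8.06 for mt-Rnr2, with 2785 and 2450 units at P45 and 347 and 303 at P0.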

How the results depend on the processing

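Counts of members called, both directions together, are given here. Asking for a 2-fold change as well left 54 at P0 over E12.5, 40 at P45 over P0, 15 at P9 over P0, 12 at P45 over P9, 2 in v1 explants and 3 in assembloids at D19 over D3, 5 for v1 over FBS, 3 for D19 assembloids over v2 explants, 2 for D19 assembloids over P0 and 3 for the difference between cultures. Equal column totals gave 54 at P45 over P0 and 12 for the difference, as did equal totals without mt genes and quantile normalization for the difference. Quantile normalization gave 1 for v2 over v1. Fitting only the groups compared gave 16 at P9 over P0 and 17 for the difference. Set r2 alone gave 7 for D19 assembloids over v2 explants and 3 for the difference.

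Leaving out 1 library gave 85 to 96 at P0 over E12.5, 74 to 95 at P45 over P0, 19 to 38 at P9 over P0, 70 to 82 at P45 over P9, 36 to 41 in v1 explants, 47 to 65 in assembloids, 19 to 27 for v1 over FBS, 0 to 3 for v2 over v1, 3 to 11 for D19 assembloids over v2 explants, 47 to 84 over P0 and 2 to 5 for the difference. Leaving out libraries for P9 over P0, P45 over P9, the further comparisons and the difference, and set r2 alone for the difference, were chosen after seeing the data.

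Some directions reversed. For D19 assembloids over P0, leaving out 1 library gave Atp5k a log2 change of -1.96 to 0.0442 and Cox4i1 one of -0.529 to 0.0256, the upper value of each without the second P0 library. With equal totals Cox8a was at -0.0746 at P45 over P0. Quantile normalization, which fixes the top ranks by construction, reversed mt-Co1 for D19 assembloids over P0 (-0.87) and v1 explants (-0.44), mt-Cytb for v1 over FBS (0.26), mt-Co2 at P45 over P0 (-0.23), P45 over P9 (-0.18) and P9 over P0 (-0.0423), and mt-Atp6 (-0.07) and mt-Nd1 (-0.20) at P45 over P9. At P9 over P0 it left 7 mitochondrial members called higher. For the others the cause was not tested.

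The labels do not say that replicate numbers pair the samples. The correlation of deviations ran from -0.205 to 0.205, with a median of 0.00629, and exceeded 0.1 in 11 of 136 pairs. The highest values lay among explants, at 0.205 for D7 and D13 v1, 0.203 for D17 v0 and D7 v1, and 0.201 for D17 v0 and D13 v1. Whether same-numbered explant libraries share an origin was not tested. With the replicate block the counts were 91, 90, 50, 68, 39, 0, 9 and 77 for P0 over E12.5, P45 over P0, v1 explants, assembloids, v1 over FBS, v2 over v1, D19 assembloids over v2 explants and over P0, 27 at P9 over P0, 81 at P45 over P9 and 6 for the difference.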
